A study of Arabidopsis thaliana with 6 samples.

Results

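Transcripts of 5 Arabidopsis thaliana genes that act in different routes of DNA repair were followed in wild type plants and in an atm mutant. They were AT1G49980 (DNA polymerase kappa), AT1G80850 (a DNA glycosylase), RAD4 (AT5G16630), AT1G48360 (the FAN1 nuclease) and ATLIG4 (AT5G57160, DNA ligase IV). Each was measured by 1 probe set, a group of short oligonucleotides on the ATH1 array that together read a transcript, so the genes account for 5 of the 13513 probe sets with 1 named gene and of 22746 in all. The genes were chosen by name with their difference between the genotypes already known from these arrays. Those differences are therefore given as a description. Where the calls of fits over all probe sets are counted for these genes, the counts describe the fits and are not a test of the genes.

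Total RNA came from whole plants at growth stage 1.04, grown on agar medium with sucrose. The wild type was strain Col0, with 3 arrays, and the mutant also had 3. The mutant is written atm in titles, ATM1 as a source and AtATM3 mutant as a genotype, and which allele this is stays unsure. The name of the series asks for X-ray inducible transcripts that need ATM, but no irradiation, dose or time is stated for either genotype, and no pair of irradiated and unirradiated samples was available here. Nothing in the labels says that replicates came from separate cultures, so the spread between them may be technical. No probe set was named for ATM, so the genotype was not checked at its own transcript.

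ATM is a protein kinase that is activated by DNA double-strand breaks and, in plants, acts largely through the transcription factor SOG1. Repair itself runs by separate routes. In base excision repair a glycosylase cuts a damaged base from its sugar, while nucleotide excision repair removes a short stretch of strand around a lesion that distorts the helix. Translesion polymerases copy past damage that stays in the template. Non-homologous end joining seals broken ends without a template, and structure-specific nucleases act where the strands are crosslinked or branched.

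The 2 genes with the lowest relative signal in the mutant belonged to translesion synthesis and base excision, and both were about as far below the wild type. The genes for damage recognition in nucleotide excision and for the FAN1 nuclease had overlapping values in the genotypes. DNA ligase IV lay between, with a lower mean in the mutant but overlapping arrays.

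AT1G49980 encodes DNA polymerase kappa, a polymerase of the Y family that synthesises across damaged bases. Its MAS5 signal, the deposited intensity on a linear scale, was 62.5, 85.3 and 95.3 on wild type replicates 1, 2 and 3 and 23.7, 38.3 and 30.9 on atm mutant replicates 1, 2 and 3. Every mutant array was lower than every wild type array. The means were 81.0 ± 16.8 and 31.0 ± 7.33 (SD, n = 3 each), which is 2.63-fold lower in the mutant as a ratio of geometric means, or a log2 difference of -1.39 (SE 0.24). The closest pair across the genotypes was wild type replicate 1 and atm mutant replicate 2.

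AT1G80850, the DNA glycosylase gene, gave 73.5, 89.2 and 95.0 in wild type replicates 1, 2 and 3. Its signals in atm mutant replicates 1, 2 and 3 were 31.7, 25.3 and 42.6. The genotypes did not overlap here either, and atm mutant replicate 2 was the lowest of its group, where it had been the highest for AT1G49980. The means were 85.9 ± 11.1 and 33.2 ± 8.78 for wild type and mutant (SD, n = 3 each), a signal 2.63-fold lower and a log2 difference of -1.40 (SE 0.23).

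RAD4 is named for the yeast protein, the counterpart of human XPC, which recognises distorted DNA at the start of nucleotide excision repair. Its signals were 53.4, 60.4 and 65.0 on wild type replicates 1, 2 and 3 and 75.6, 76.2 and 64.1 on the mutant replicates. The groups overlapped narrowly, since atm mutant replicate 3 lay just below wild type replicate 3. It was the only one of the 5 with a higher mean in the mutant, 72.0 ± 6.80 against 59.6 ± 5.80 (SD, n = 3 each), a log2 difference of 0.27 (SE 0.15).

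AT1G48360 encodes FAN1, a structure-specific nuclease of crosslink repair. Its values were 56.8, 48.5 and 40.7 on wild type replicates 1, 2 and 3 and 43.4, 47.2 and 43.1 on the mutant replicates. The mutant values lay inside the range of the wild type. The means were 48.7 ± 8.01 and 44.6 ± 2.29 (SD, n = 3 each), with a log2 difference of -0.11 (SE 0.18).

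ATLIG4 encodes DNA ligase IV, which closes the break in non-homologous end joining. Its signals were 58.1, 46.5 and 61.2 on wild type replicates 1, 2 and 3 and 53.5, 31.6 and 33.4 on the mutant replicates. Replicates 2 and 3 of the mutant lay below the whole wild type group, and replicate 1 lay inside it. The means were 55.3 ± 7.71 and 39.5 ± 12.2 (SD, n = 3 each), a log2 difference of -0.52 (SE 0.25). In whole plants, fewer cells that express a gene and less of its RNA per cell cannot be told apart, for ATLIG4 as for the others.

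**Figure D1:**
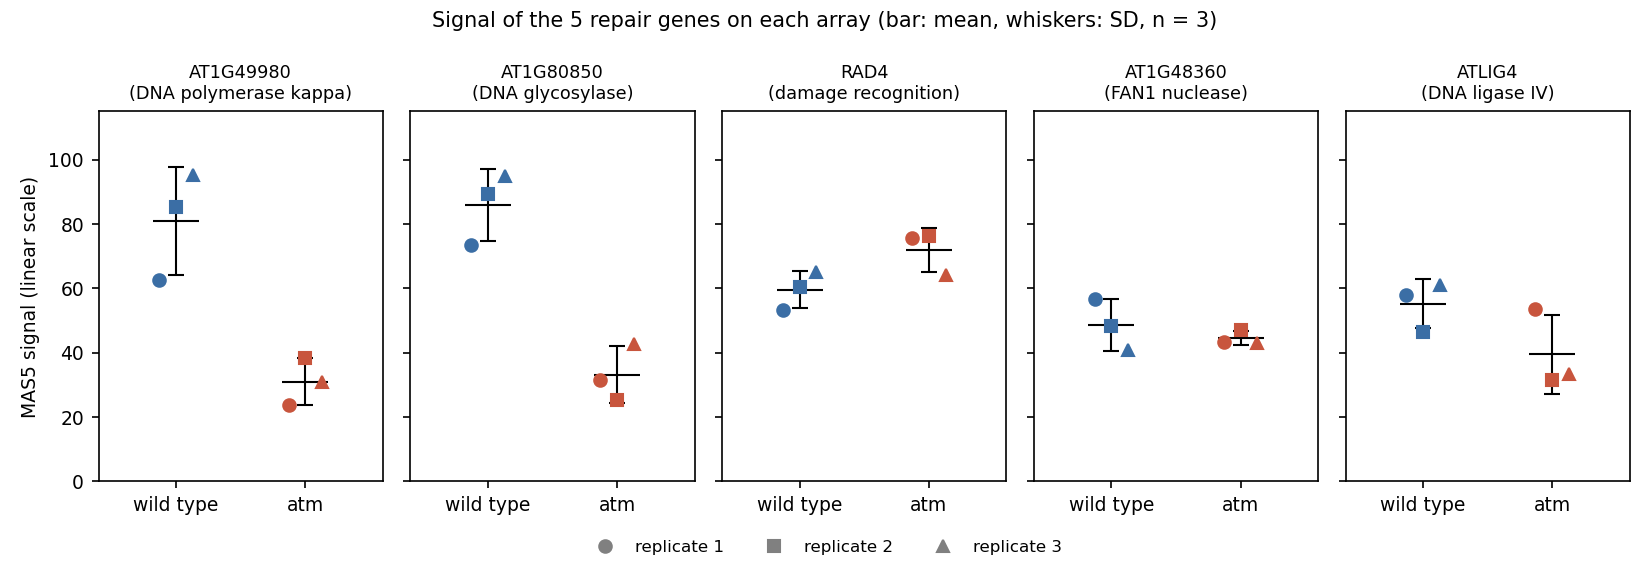
MAS5 signal on a linear scale for the 5 repair genes, with a point for each array (circle, square and triangle for replicates 1, 2 and 3), a bar for the mean and whiskers for the SD (n = 3). The genotypes are apart for AT1G49980 and AT1G80850, where the highest mutant values are 38.3 and 42.6 and the lowest wild type values 62.5 and 73.5, and they overlap for RAD4, AT1G48360 and ATLIG4.

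The difference was fitted with limma over the 13895 probe sets whose signal was above the 40th percentile of the array in 3 or more of the 6 arrays. All 5 genes passed this filter. RAD4, AT1G48360 and ATLIG4 were above that percentile on all 6 arrays, and AT1G49980 and AT1G80850 on 3 wild type and 2 mutant arrays each. At an adjusted p under 0.05 the fit called 0.223% of probe sets and 0 of the 5 genes. The mean log2 signal was lower in the mutant for 4 of the 5, against 48.1% of all probe sets tested, and lower by over 2-fold for 2 of the 5, against 0.648%. Groups lay apart with the mutant lower in 2 of the 5, against 4.85% of all. The median log2 difference of the 5 was -0.52 and that of all probe sets tested 0.01. These counts restate how the genes were chosen.

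In the order of all tested differences AT1G80850 had 50 probe sets below it and AT1G49980 had 51. ATLIG4 had 335 below it, AT1G48360 had 3485, and RAD4 had 1240 above it. Within its own array AT1G49980 stood between percentiles 59.9 and 70.1 in the wild type and between 38.0 and 48.4 in the mutant. AT1G80850 stood between percentiles 63.7 and 70.1 in the wild type and between 39.8 and 51.3 in the mutant. The pair therefore moved from the upper to the middle part of the signal range of the array.

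The replicate spread differed among the genes. The SD of log2 signal within a genotype was 0.33 for AT1G49980, 0.30 for AT1G80850 and 0.33 for ATLIG4, above the median of 0.23 over all probe sets tested. It was 0.14 for RAD4 and 0.18 for AT1G48360, below that median. RAD4 and AT1G48360, the 2 genes with the smallest differences between genotypes, were thus also the 2 that varied least between replicates.

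Wild type replicate 1 and atm mutant replicate 2 stood apart from the other 4 arrays. They correlated with each other at a Pearson r of 0.965 across tested probe sets, themselves not independent of each other, while wild type replicate 1 reached at most 0.930 with the other wild type arrays. The 25S ribosomal RNA control signal was 836 and 2123 on these 2 arrays and 4106 to 5400 on the other 4. For AT1G49980, wild type replicate 1 was 0.53 below the other wild type arrays on the log2 scale, and atm mutant replicate 2 was 0.50 above the other mutant arrays, so both lay toward the other genotype. For AT1G80850 both arrays were low, with values of -0.32 and -0.54 against the other arrays of their own genotype. For ATLIG4 they were 0.12 and -0.42, for AT1G48360 0.35 and 0.13, and for RAD4 -0.23 and 0.13.

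On the other 4 arrays alone the log2 difference was -1.74 for AT1G49980 and -1.33 for AT1G80850, so both were still lower by more than 2-fold. It was -0.34 for ATLIG4, -0.04 for AT1G48360 and 0.15 for RAD4. In this fit limma called 233 probe sets, 1.68% of all, and these held AT1G49980 and AT1G80850. The same 2 genes, and none of the other 3, were among 73 calls (0.525%) with array weights and among 108 calls (0.777%) with a term for the pair of arrays. They were not called in any of the other alternatives. Since the contrast had chosen the genes, these calls are values of the fits and not evidence.

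**Figure D2:**
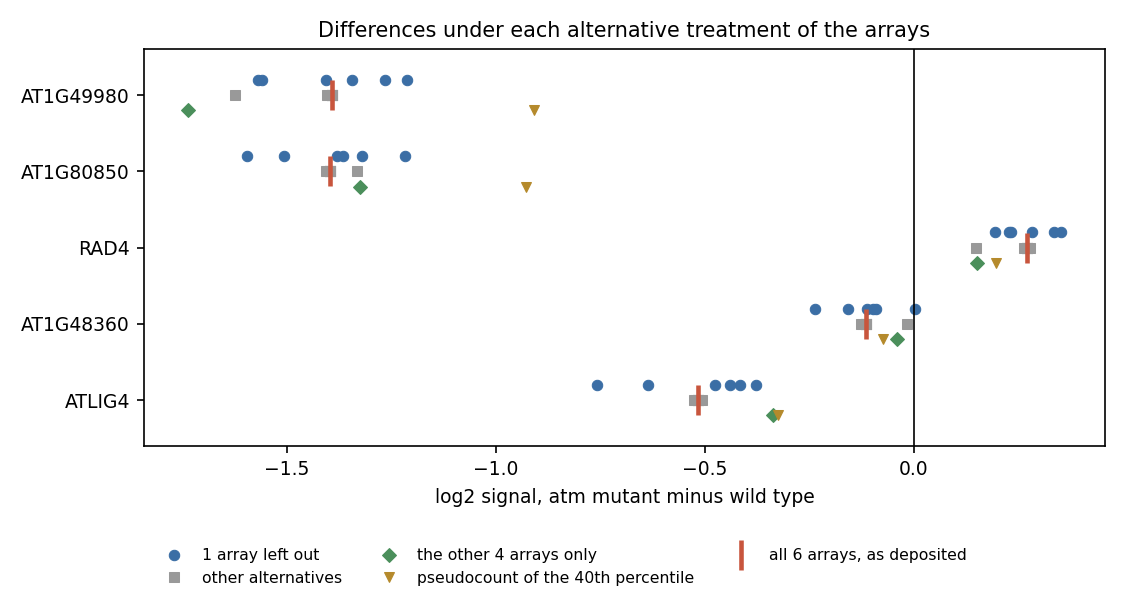
Log2 difference, atm mutant minus wild type, of each gene with all 6 arrays (red bar) and under each alternative (points by kind, as keyed). AT1G49980 stays between -1.74 and -0.91 and AT1G80850 between -1.59 and -0.93, while AT1G48360 lies between -0.24 and 0.00 and RAD4 between 0.15 and 0.35.

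Other genes of the repair routes were read from 8 lists of 122 genes in all, which hold none of the 5. Of these, 41 had a named probe set and 22 passed the filter, while 81 had no probe set named here and were not analysed. Limma called 0 of the 22 in either direction over all probe sets, where it called 0.223%. An unadjusted limma p under 0.05 was reached by 1 of the 22, against 3.36% of all probe sets. That gene, ATMND1, passed the filter through its wild type arrays alone, so its lower signal in the mutant is not support. None of the 22 was called under any of the 18 alternatives. The mean log2 signal was lower in the mutant for 9 of the 22 and higher for 13, where 48.1% of all probe sets were lower. The median log2 difference of the 22 was 0.04 against 0.01 over all probe sets. The groups lay apart for 4 of the 22, against 8.66% of all probe sets in either direction. Of these, 3 were lower in the mutant, and ATMND1 was among the 3. Within 0.25 of zero on the log2 scale lay 21 of the 22 list genes, 79.3% of all tested probe sets and 1 of the 5 described genes.

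The base excision list had the best coverage, with 17 of 29 genes named and 13 tested. Their log2 differences ran from -0.15 to 0.19 with a median of 0.11, while AT1G80850 itself was at -1.40. The mean log2 signal was higher in the mutant for 12 of the 13 and lower for 1. Over all probe sets tested it was lower for 48.1%. None of the 13 reached an unadjusted limma p under 0.05. ATNTH1, a bifunctional glycosylase for oxidised bases, had the smallest p of the list. Its signals were 83.1, 70.1 and 60.7 in the wild type and 78.1, 93.4 and 71.2 in the mutant (replicates 1, 2 and 3), and the genotypes overlapped (log2 difference 0.19, SE 0.18). DME, the DEMETER glycosylase that removes 5-methylcytosine, came next with a log2 difference of -0.15 (SE 0.15). It was read by 3 probe sets, whose differences were -0.46, 0.05 and -0.15, and was represented by the brightest of them, the last.

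Of the nucleotide excision list, 3 of 22 genes were named and all 3 were tested. AT4G17020 had signals of 47.0, 48.2 and 49.99 on wild type replicates 1, 2 and 3 and of 42.4, 44.5 and 37.2 on the mutant replicates. Its groups lay apart, with a log2 difference of -0.23 (SE 0.16) that did not pass the test (limma adjusted p = 1.00). AT1G12400 had -0.01 (SE 0.19) and AT1G18340 -0.01 (SE 0.15), beside 0.27 for RAD4.

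Of the translesion and damage tolerance list, 3 of 15 genes were named and 1 was tested. REV7, a subunit of the translesion polymerase zeta, had signals of 26.1, 38.4 and 25.2 in the wild type and 32.6, 31.2 and 29.8 in the mutant. The mutant values lay inside the wild type range (log2 difference 0.09, SE 0.25), where AT1G49980 was at -1.39. POLH, which encodes the Y family polymerase eta, and RAD5, the other named genes of this list, were too dim to be tested. Their values are not read here.

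Of the end joining list, 2 of 12 genes were named and 0 passed the filter. ATLIG4 was thus the only gene of its route with a named probe set that was tested. The genes without a named probe set were not analysed, so their signal is not known here. AT4G32700 had 2 probe sets. The brighter had signals of 9.96 to 10.7 in the wild type and 8.45 to 16.6 in the mutant, low in both. The other had 2.19 to 9.03 in the wild type and 2.02 to 20.1 in the mutant, also below the filter.

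Of the list for crosslink repair and structure-specific nucleases, 12 of 19 genes were named and 4 tested, with differences from -0.14 to -0.05. AT1G79950 had signals of 128.1, 135.3 and 124.0 in the wild type and 121.7, 109.2 and 122.2 in the mutant. The groups lay apart by a small margin (log2 difference -0.14, SE 0.12, limma adjusted p = 1.00). SEND1 (AT3G48900), a gene for a structure-specific endonuclease, had -0.09 (SE 0.26) with overlapping groups. AT1G48360 at -0.11 lay within the range of these 4. RECQ4A and RECQ4B, helicases of the RecQ family, were below the filter, as were FANCM and EME1A.

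Of the homologous recombination list, 2 of 12 genes were named and 1 was tested. ATMND1, whose product assists strand exchange in meiosis, was that gene. It had signals of 33.4, 40.2 and 32.9 in the wild type and 16.9, 8.65 and 11.05 in the mutant, so that the groups lay apart. Its log2 difference was -1.59 (SE 0.35), which did not pass the test over all probe sets (limma adjusted p = 0.388). It passed the filter through the wild type arrays alone, so that it had to differ in this direction. Of the mismatch repair list 2 of 10 genes were named and 0 tested, and of the 3 photolyases 0 were named.

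**Figure D3:**
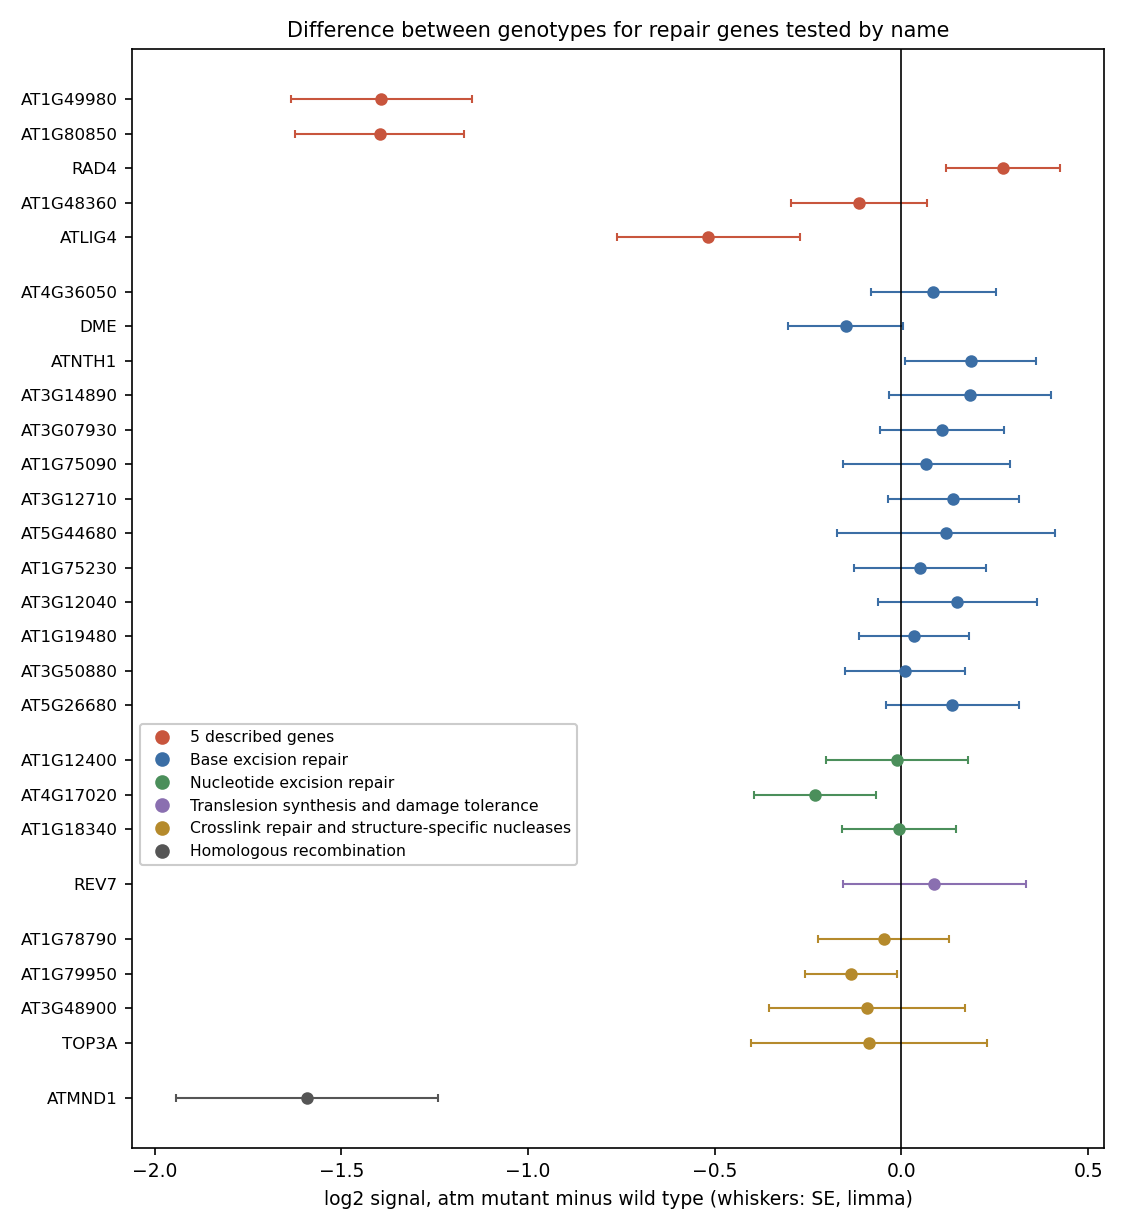
Log2 difference, atm mutant minus wild type, with its SE from limma, for the 5 described genes (red) and the 22 other repair genes tested by name, coloured by list. Apart from ATMND1 at -1.59, the 22 lie between -0.23 and 0.19, as AT1G48360 does at -0.11, while AT1G49980 and AT1G80850 lie at -1.39 and -1.40.

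Likeness of expression was described by the root mean square difference between log2 signals, each centred on its mean over the 6 arrays, against the other 7453 tested probe sets with 1 named gene. A small value means that both profiles lay close together on all 6 arrays. For a gene that varies little, any other gene that varies little also gives a small value. Near genes were picked by this likeness, so what they share with the gene restates that choice. The nearest to AT1G49980 was AT3G14560, at 0.17. AT3G14560 had signals of 174.9, 193.3 and 190.9 in the wild type and 59.3, 77.6 and 69.8 in the mutant, with the same order of the 3 mutant arrays, and it was among the 31 calls over all probe sets (log2 difference -1.44, limma adjusted p = 0.00695). AT5G67460 and AT1G23850 followed at 0.25 and 0.26, and neither was called.

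The nearest to AT1G80850 were AT4G33160 at 0.24, AT1G52060 at 0.25 and AT1G23000 at 0.26. In each of these 3, as in AT1G80850, atm mutant replicate 2 was the lowest of all arrays. AT4G33160 had 66.3, 74.4 and 95.8 in the wild type and 43.6, 29.7 and 43.6 in the mutant. AT1G49980 and AT1G80850 were 0.36 apart, with 13 genes nearer to AT1G49980 and 12 nearer to AT1G80850 than the other of the pair was. Their profiles shared the step between genotypes and differed in atm mutant replicate 2. Both genes were chosen with this step known, so sharing it restates the choice.

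ATLIG4 had 18 genes within 0.2, the nearest being AT2G46060 at 0.11, AT4G22790 at 0.12 and AT5G46270 at 0.12. In AT2G46060 as in ATLIG4, atm mutant replicate 1 lay inside the wild type range, with 88.7 against 56.6 and 58.2 on replicates 2 and 3. The profiles of RAD4 and AT1G48360 changed less between genotypes, and 1346 and 1929 genes lay within 0.2 of them. Both profiles were so close to flat that a gene with no change on any array would also fall within 0.2. The counts thus do not show a shared pattern. The nearest to RAD4 were AT2G14860, AT2G42320 and AT5G61220, each at 0.05. Picked by likeness to RAD4, they were by that choice also slightly higher in the mutant, with log2 differences of 0.26, 0.25 and 0.20. The nearest to AT1G48360 were AT2G45860 at 0.04, AT3G46920 at 0.05 and AT3G02450 at 0.05.

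**Figure D4:**
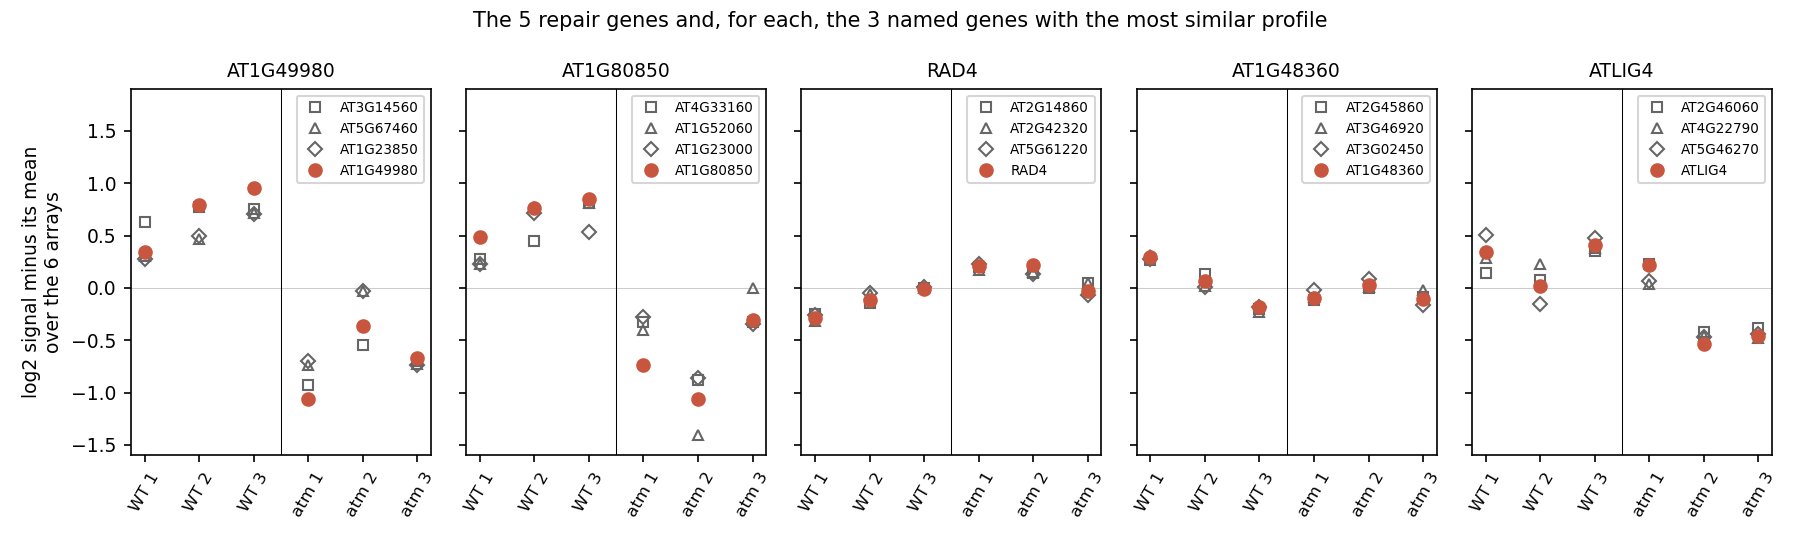
Log2 signal minus its mean over the 6 arrays (vertical axis), for wild type (WT) and atm mutant replicates 1 to 3, of each repair gene (red) and the 3 named genes with the most similar profile (open symbols). AT1G49980 and AT1G80850 share the step between genotypes, with differences of -1.39 and -1.40, but atm mutant replicate 2 is the highest mutant array for the first and the lowest for the second.

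The labelled tissue was checked by markers of plant parts. RCA, which encodes Rubisco activase of green tissue, had signals of 4133 to 6177 in the wild type and 4826 to 5520 in the mutant. PYK10, a root beta-glucosidase, had 2957 to 3304 and 2931 to 3624. EXPA7, an expansin of root hairs, had 25.7 to 44.8 and 21.9 to 34.1. Only 1 of 4 leaf markers and 2 of 3 root markers had a named probe set. EXPA7 was dim, above the 40th percentile of the array on 3 wild type and 2 mutant arrays. By RCA and PYK10, transcripts of green tissue and of root were present in both genotypes with overlapping levels. No marker of seeds or flowers was named.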

How the data were processed

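Values deposited by the authors are MAS5 signal intensities, 1 for each probe set on each array and not on a log scale. GCOS is the software, per the submitters' processing notes, while scaling target, detection calls and filters are not given in the sources used here. The mean of each array after trimming 2% at each end was 100.0, so each array carries 1 scaling factor and differences in the shape of the distribution remain. Precision is limited by the number of arrays.

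Intensities were taken to log2 without further scaling. Tested were probe sets above the 40th percentile of the array in 3 or more arrays, without the 64 controls. Array medians were 40.0 to 41.3. The genotypes were compared with limma 3.58.1 in R 4.3.3 (lmFit, eBayes with trend, no block), with Benjamini-Hochberg adjustment over 13895 probe sets and two-sided p-values. With 3 arrays a genotype, the smallest p of an exact permutation test is 0.1. The script was tested on simulated data with independent noise for each probe set and array. That simulation did not hold the shared deviation of wild type replicate 1 and atm mutant replicate 2. Names came from the platform annotation, updated by gene ID through the RefSeq table of TAIR10.1, which matched 13436 of 13513 single-gene probe sets. Another 503 had several genes and 8730 were unnamed here. No coordinates or sequences were used, and the promoter motifs that had been planned were not analysed here.

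The 5 genes, the 8 repair lists and the alternatives were chosen with earlier results of these data known. The text names the 5 genes, any called gene of a list and its 2 smallest p, and the 3 nearest profiles of each of the 5. POLH, RAD5, AT4G32700, RECQ4A, RECQ4B, FANCM, EME1A and AT1G18340 fall outside this rule and were named after their values were seen. One named gene of the homologous recombination list is not reported here. A gene with several probe sets was represented by the brightest. Alternatives changed the scaling, the filter, the low values, eBayes, array weights, the replicate block and the arrays used.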

Additional observations from a re-analysis of the deposited data

How the results depend on the processing

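The log2 differences of AT1G49980 and AT1G80850 were below zero, and that of RAD4 above zero, under all alternatives run. With a pseudocount of the 40th percentile they shrank to -0.91 for AT1G49980 and -0.93 for AT1G80850, as adding a constant to both groups must do. On the 4 arrays without wild type replicate 1 and atm mutant replicate 2 AT1G49980 was at -1.74. With any 1 array left out the difference was -1.57 to -1.21 for AT1G49980, -1.59 to -1.22 for AT1G80850, -0.76 to -0.38 for ATLIG4, 0.20 to 0.35 for RAD4 and -0.24 to 0.00 for AT1G48360, which lay just above zero without wild type replicate 1. The filter at the 60th percentile left AT1G49980, AT1G48360 and ATLIG4 untested. Over all probe sets 31 were called, and 73 with array weights, 108 with the term for the pair of arrays and 233 on the other 4 arrays. Leaving out 1 array gave 13 to 36, with 13 without wild type replicate 2 and 13 without wild type replicate 3. With the replicate block 11 were called, none of them one of the 5 genes, and the 5 log2 differences were the same. Deviations of same-numbered arrays from their group means correlated at -0.461, -0.46 and 0.379, and not all were above 0.1. These values cannot decide on pairing, since wild type replicate 1 and atm mutant replicate 2 deviated together (r = 0.647). The arrays were treated as unpaired because the labels gave no factor besides genotype. The cause of the differing counts was not tested. Of the named list genes 19 of 41 (46.3%) were below the filter, against 44.8% of all probe sets with 1 named gene.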
